A study of Homo sapiens with 22 samples.

Results

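EPB41L3, SERPINB5 and ENPP4 were lost, and LINC00645, ADARB2 and SLITRK4 were gained, in HT1080 KDAC6H611A, a line whose second KDAC6 catalytic domain was inactivated. These 6 genes, of 60675 in the table, were selected on their counts in that contrast with wild-type (WT) cells, so their values in KDAC6H611A and in WT are a description and carry no test. They are called the members, and each was followed in all 22 RNA-seq libraries of 6 groups.

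HT1080 is an established human fibrosarcoma line. WT cells, which were left untreated, gave 4 libraries, and KDAC6H216A (first catalytic domain of KDAC6), KDAC6H611A (second catalytic domain) and KDAC8H143A gave 4 each. In each mutant line a histidine codon of the catalytic centre was changed to alanine in the chromosomal gene with Cas9 and a single-stranded repair template, and all lines were kept in the same growth medium. WT cells treated with Tubastatin A, an inhibitor of KDAC6, or with PCI-34051, an inhibitor of KDAC8, gave 3 libraries each, and a vehicle for the untreated cells is not named in the sources used here. The mutant lines were grown from single colonies, and KDAC6H216A was a pool of independent lines, so for KDAC6H611A and KDAC8H143A the replicate libraries measure the spread within the line and the effect of the mutation and of the line cannot be told apart. The KDAC6H216A libraries are repeats of that pool and do not measure the spread between its lines. There the effect of the mutation and of the pool cannot be told apart either. Total counts ran from 5248953 to 17170473 in the untreated libraries and from 24315766 to 29862665 in the inhibitor libraries. Levels are given as CPM, counts relative to the library total after scaling by the trimmed mean of M-values (TMM) over all libraries. The mitochondrial rRNA share varied within both KDAC6 lines, from 0.195% to 15.1% of counts in KDAC6H216A and from 0.173% to 38.0% in KDAC6H611A, with replicate 1 and replicate 4 respectively far below the others. It was 20.8% to 23.9% in WT and at most 0.0259% in KDAC8H143A and the inhibitor libraries. All KDAC8H143A and inhibitor libraries also had higher totals than every WT library. In comparisons of these groups with WT, line or treatment cannot be told apart from what set these library differences. Of the markers of a fibrosarcoma line, VIM, FN1 and SPARC were at 166 CPM or more in every library, while COL1A1 ran from 0.290 to 21.3 CPM and THY1, S100A4 and COL1A2 were at or below 4.53 CPM. Of the epithelial markers, KRT8 and KRT18 were at 95.1 CPM or more, and EPCAM, CDH1 and KRT19, like the blood markers PTPRC and CD3E, never exceeded 5 counts.

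The 6 genes have unrelated roles. EPB41L3 encodes a protein 4.1 family member that links membrane proteins to the spectrin and actin skeleton, and SERPINB5 encodes maspin, a clade B serpin that does not inhibit proteases in the usual way; both are known for loss of expression in carcinomas. ENPP4 encodes a membrane-bound nucleotide phosphodiesterase. ADARB2 encodes a catalytically inactive relative of the adenosine deaminases that edit RNA, SLITRK4 a neuronal membrane protein that takes part in synapse formation, and LINC00645 a long non-coding RNA. KDAC6 deacetylates mainly cytoplasmic proteins such as tubulin.

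On GRCh38 with GENCODE 44, EPB41L3 (ENSG00000082397) lies on the minus strand of chromosome 18 from 5392381 to 5630700. SERPINB5 (ENSG00000206075) lies on the plus strand of chromosome 18 from 63476958 to 63505085. ENPP4 (ENSG00000001561) lies on the plus strand of chromosome 6 from 46129989 to 46146688. LINC00645 (ENSG00000258548) lies on the plus strand of chromosome 14 from 27612577 to 27639636. ADARB2 (ENSG00000185736) lies on the minus strand of chromosome 10 from 1177313 to 1737525, and SLITRK4 (ENSG00000179542) on the minus strand of the X chromosome from 143622790 to 143636101. Thus 2 of the 3 lost members share a chromosome, and the gained members lie on 3 different ones. Of all 18 genes lost in KDAC6H611A by the count rule given below, 3 (16.7%) lay on chromosome 18, EPB41L3 and SERPINB5 included. Of the 31 gained by that rule, 1 (3.23%) did.

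RefSeq promoter windows of 300 bases (250 before the transcription start and 50 after it, GRCh38.p14) were matched by symbol to 4 of the 6 genes, and not to ENPP4 or LINC00645. The first window listed for each of the 4 is shown, to give the sequence at an annotated start of genes from both sets; which start was used was not measured. Capitals mark each CG dinucleotide, the site of DNA methylation, and the letters run 5′ to 3′ along the gene's strand.
EPB41L3, chr18:5628942-5629241, minus strand: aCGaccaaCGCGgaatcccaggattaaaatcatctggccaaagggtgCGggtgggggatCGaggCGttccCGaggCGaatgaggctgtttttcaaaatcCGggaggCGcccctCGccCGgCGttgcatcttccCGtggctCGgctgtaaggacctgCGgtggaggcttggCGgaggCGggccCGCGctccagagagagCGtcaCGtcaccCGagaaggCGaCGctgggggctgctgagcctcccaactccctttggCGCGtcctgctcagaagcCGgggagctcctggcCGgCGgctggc
SERPINB5, chr18:63476708-63477007, plus strand: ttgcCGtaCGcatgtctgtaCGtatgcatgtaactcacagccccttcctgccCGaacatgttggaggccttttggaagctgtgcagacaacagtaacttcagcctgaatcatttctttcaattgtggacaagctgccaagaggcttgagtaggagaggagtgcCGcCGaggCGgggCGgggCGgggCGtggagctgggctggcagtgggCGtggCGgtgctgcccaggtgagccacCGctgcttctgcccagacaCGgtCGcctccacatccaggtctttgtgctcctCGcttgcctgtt
ADARB2, chr10:1737476-1737775, minus strand: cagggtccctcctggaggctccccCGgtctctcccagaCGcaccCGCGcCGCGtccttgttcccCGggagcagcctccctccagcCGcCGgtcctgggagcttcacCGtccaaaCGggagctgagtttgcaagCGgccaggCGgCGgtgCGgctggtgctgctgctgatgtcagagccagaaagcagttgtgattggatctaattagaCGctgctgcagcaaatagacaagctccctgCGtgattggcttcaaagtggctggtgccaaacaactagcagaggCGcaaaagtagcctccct
SLITRK4, chrX:143636052-143636351, minus strand: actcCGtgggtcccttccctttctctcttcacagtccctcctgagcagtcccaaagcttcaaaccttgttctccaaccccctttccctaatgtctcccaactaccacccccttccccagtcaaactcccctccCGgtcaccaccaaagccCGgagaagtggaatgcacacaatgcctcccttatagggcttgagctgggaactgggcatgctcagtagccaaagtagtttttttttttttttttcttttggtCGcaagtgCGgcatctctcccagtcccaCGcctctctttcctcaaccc

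The lost genes EPB41L3 and SERPINB5 held 30 and 16 CG in these windows, and the gained genes ADARB2 and SLITRK4 held 18 and 6. The other EPB41L3 windows held 32, 4 and 2 CG, and the other SLITRK4 windows held 25 each. Over all 35116 windows of the table the median was 14 CG, with quartiles of 4 and 28. A window had at least as many CG as the first EPB41L3 window in 22.4% of cases, as that of SERPINB5 in 47.5%, as that of ADARB2 in 44.5% and as the first SLITRK4 window in 66.3%. The lost and the gained genes were not separated by this count, as the plot of CG number shows.

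**Figure D1:**
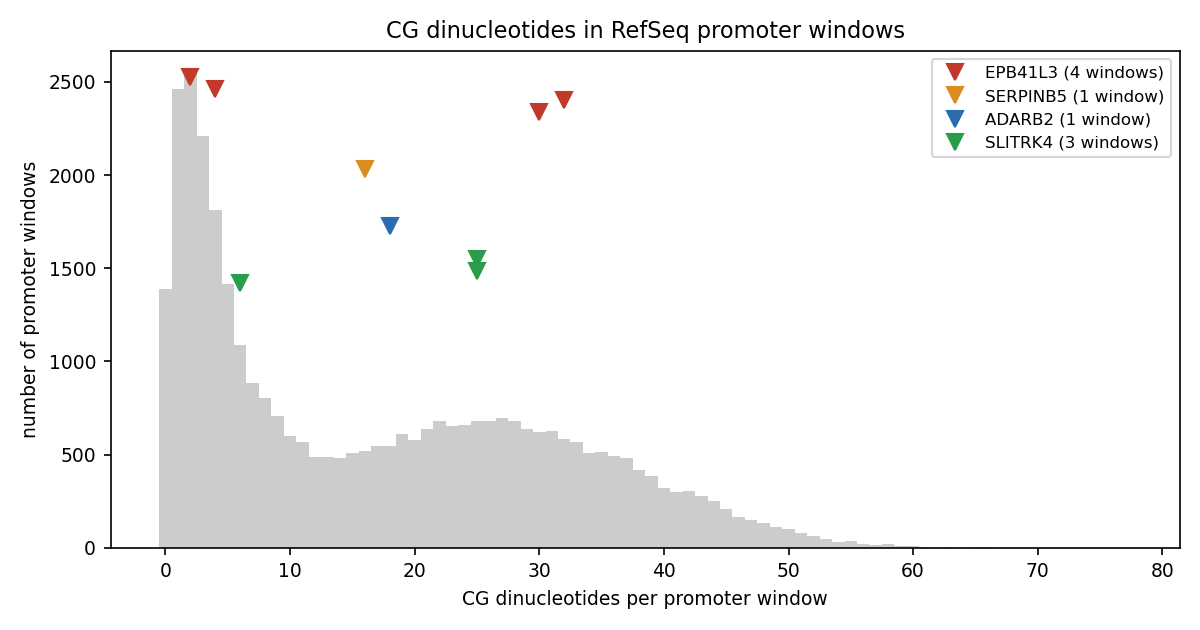
CG dinucleotides per RefSeq promoter window of 300 bases (x axis) against the number of windows (y axis, grey bars, 35116 windows); triangles mark the windows of 4 of the genes, and their height carries no value. EPB41L3 and SLITRK4 have windows both at 6 CG or fewer and at 25 or more, and the single windows of SERPINB5 and ADARB2, at 16 and 18, lie just above the median of 14.

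EPB41L3, the membrane skeleton linker, had the highest WT level per length of the lost genes and was not detected in KDAC6H611A. Its level in WT was 178, 192, 194 and 179 CPM, from 863 to 1544 counts per library. In KDAC6H611A it had 0 counts in all 4 libraries. Against a floor of 3 counts in replicate 2, the smallest KDAC6H611A library after TMM scaling, it was at least 370-fold lower (mean of 186 CPM in WT). In such bulk samples, fewer expressing cells and less RNA per cell cannot be told apart for a level above 0.

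SERPINB5, the maspin gene, was at 16.1, 16.9, 17.8 and 16.2 CPM in WT, from 78 to 141 counts per library. It also had 0 counts in all 4 KDAC6H611A libraries, at least 33.3-fold lower against the same floor. ENPP4, the phosphodiesterase gene, was at 2.68, 3.24, 3.41 and 3.76 CPM in WT, from 13 to 27 counts. In KDAC6H611A it had 2 counts in replicate 3 and 0 in the other 3 libraries, at least 6.50-fold lower. The loss was therefore complete to the depth of the libraries for EPB41L3 and SERPINB5, while the bound for ENPP4 was set by its low counts in WT.

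LINC00645, the non-coding RNA, had 0 counts in every WT library and 4.74, 6.54, 3.53 and 3.14 CPM in KDAC6H611A, from 27 to 39 counts. Against 3 counts in the smallest WT library it was at least 7.24-fold higher. ADARB2, the RNA editing relative, likewise had 0 counts in every WT library and 2.50, 4.19, 2.08 and 2.21 CPM in KDAC6H611A, from 19 to 25 counts, at least 4.43-fold higher. SLITRK4, the synaptic membrane protein, had 1 count in WT replicates 2 and 4 and 0 in the others, and 10.1, 6.71, 12.9 and 8.14 CPM in KDAC6H611A, at least 15.3-fold higher. All 4 KDAC6H611A libraries, including the one with little mitochondrial rRNA, were above every other library for each gained gene.

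The WT and KDAC6H611A ranges did not overlap for any of the 6 genes, a feature shared by 25.4% of the 14725 genes tested in that pair and fixed here by the choice of genes. A switch by the measure of at most 3 counts in every library of one group and more than 10 in every library of the other was much rarer. It was met by 18 genes lost in KDAC6H611A, 0.0297% of the table, and by 31 genes gained, 0.0511%. Of these, 13 of the lost and 24 of the gained were protein-coding. Per kilobase of exon, EPB41L3 had the highest WT level, 15.2 CPM per kb, of the 17 lost genes with an annotated length, and SERPINB5 and ENPP4 ranked 4 and 12. SLITRK4, LINC00645 and ADARB2 ranked 11, 12 and 28 of the 31 gained genes by their KDAC6H611A level per kilobase. In the other groups against WT, 5 genes were lost (0.00824% of the table) and 0 gained in KDAC6H216A, and 38 (0.0626%) and 262 (0.432%) in KDAC8H143A. With Tubastatin A 8 were lost (0.0132%) and 423 gained (0.697%), and with PCI-34051 8 (0.0132%) and 347 (0.572%). The KDAC8H143A and inhibitor libraries all had higher totals than WT, which lets more genes pass 10 counts. With a rule on levels instead (at most 0.3 CPM in every library of one group and at least 1 CPM in every library of the other), 62 genes were lost and 62 gained in KDAC8H143A, 34 and 19 with Tubastatin A and 26 and 18 with PCI-34051, so the excess of gained genes was not kept. By that rule 26 genes were lost and 26 gained in KDAC6H611A, and 10 and 0 in KDAC6H216A.

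**Figure D2:**
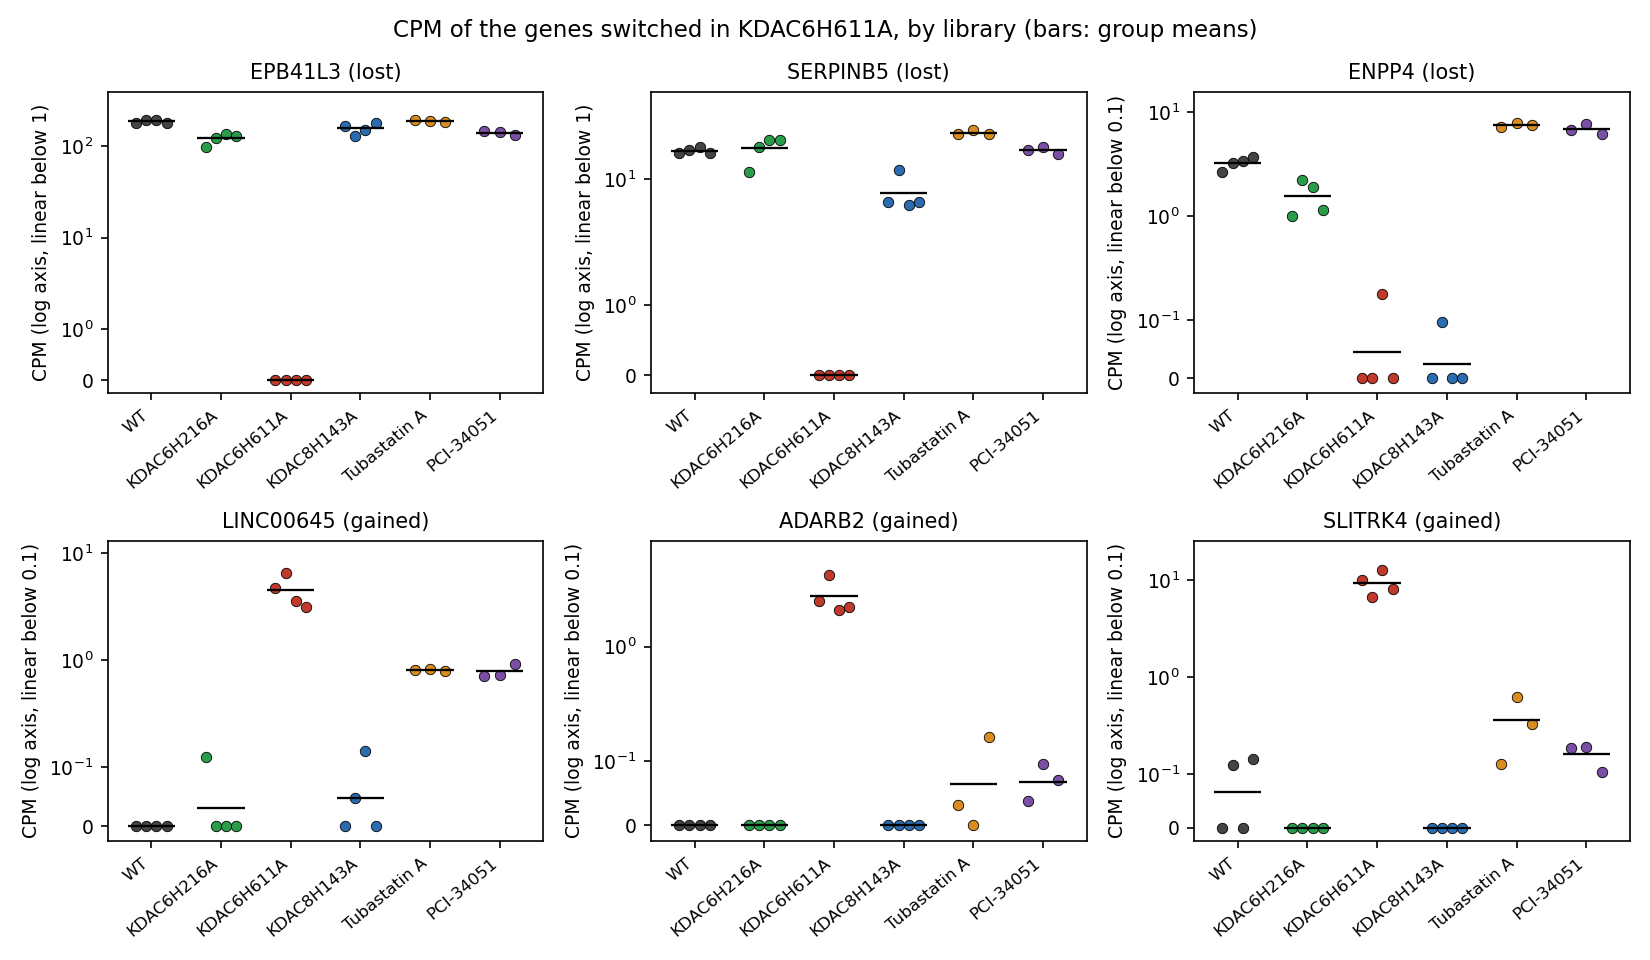
CPM (y axis, logarithmic with a linear stretch near 0) of each gene in every library of the 6 groups (x axis); points are libraries and bars are group means. EPB41L3 and SERPINB5 are at 0 only in KDAC6H611A, ENPP4 is at or near 0 in KDAC6H611A and in KDAC8H143A, and the gained genes are highest in KDAC6H611A, with LINC00645 between 0.711 and 0.915 CPM in the inhibitor libraries.

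Next, it was asked how the same genes behaved in the groups that played no part in their choice. Of the lost genes, EPB41L3 and SERPINB5 were expressed in every library of the other 4 groups, while ENPP4 never exceeded 2 counts in KDAC8H143A. Of the gained genes, SLITRK4 and ADARB2 had 0 counts in all libraries of KDAC6H216A and KDAC8H143A, and LINC00645 had at most 2. The comparisons of these groups with WT share the WT libraries on which the genes were chosen. The comparisons of KDAC8H143A with KDAC6H216A and of Tubastatin A with PCI-34051 use none of those libraries. Tests were edgeR's quasi-likelihood tests in a fit of the 2 groups, and a gene was called at a Benjamini-Hochberg adjusted p below 0.01 over all genes tested. In these fits TMM scaling was set within the 2 groups. A log2 fold change can therefore differ from the ratio of mean CPM, and for small differences also in sign.

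In KDAC6H216A, EPB41L3 was at 97.7, 122, 135 and 128 CPM, below every WT library, a separation found in 8.57% of all genes tested. It fell by 0.72 on the log2 scale (SE 0.071, adjusted p = 0.00103 by edgeR), a fitted ratio of 0.608 to WT. Without replicate 2 of KDAC6H216A the adjusted p was 0.0101, which ended the call, with a log2 fold change of -0.71, and without replicate 1, the library with little mitochondrial rRNA, it was 1.98e-08. ENPP4 was at 1.00, 2.26, 1.93 and 1.16 CPM, also below every WT library, but its log2 fold change of -1.13 (SE 0.29) did not pass (adjusted p = 0.0878 by edgeR). It passed without replicate 1 (log2 fold change -1.02, adjusted p = 0.00672 by edgeR). SERPINB5 was at 11.4, 17.9, 20.4 and 20.3 CPM and overlapped WT (log2 fold change -0.03, SE 0.14, adjusted p = 0.931 by edgeR). Thus 1 of the 3 genes tested was called, where 0.834% of the 14500 genes tested were (121 genes, and 3813 without replicate 1 of KDAC6H216A); the gained genes were too low to be tested. EPB41L3 was still at least 240-fold higher in KDAC6H216A than in KDAC6H611A. The gene of KDAC6 itself, HDAC6, was at 6.36 ± 0.748 CPM (SD, n = 4) in KDAC6H216A and 14.2 ± 3.27 (SD, n = 4) in WT (log2 fold change -1.25, SE 0.18, adjusted p = 0.0054 by edgeR). KDAC6H611A had 13.2 ± 2.29 CPM of it (SD, n = 4). A change of codon leaves the HDAC6 transcript in place, so its level does not check the labels.

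In KDAC8H143A, ENPP4 had 2 counts in replicate 2 and 0 in the other 3 libraries, all below WT; the ranges of the groups were separate for 64.8% of genes tested. Against a floor of 3 counts per library it was at least 13.1-fold lower than in WT, which makes it one of the 38 genes lost in that line. The fitted log2 fold change of -6.16, which depends on the prior count, was called (adjusted p = 2.98e-06 by edgeR). ENPP4 passed the filter on low counts only through the WT libraries on which it was chosen, so this call adds no independent support. SERPINB5 was at 6.58, 11.7, 6.25 and 6.60 CPM and did not overlap WT. It fell by 1.04 on the log2 scale (SE 0.20, adjusted p = 0.000593 by edgeR). EPB41L3 was at 164, 129, 148 and 180 CPM and overlapped WT (log2 fold change -0.21, SE 0.11, adjusted p = 0.117 by edgeR). Of the 3 genes tested 2 were called, ENPP4 with the limit above, in a comparison that called 58.5% of 16101 genes. The gained genes were at 0 counts or, for LINC00645, at 0, 1, 2 and 0 counts.

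KDAC8H143A was then set against KDAC6H216A, without the WT libraries. SERPINB5 was lower in KDAC8H143A (log2 fold change -1.15, SE 0.25, adjusted p = 0.00179 by edgeR), although replicate 2 of KDAC8H143A (11.7 CPM) lay above replicate 1 of KDAC6H216A (11.4 CPM). Without replicate 1 of KDAC8H143A the log2 fold change was -0.99 and the adjusted p 0.0104 by edgeR, which ended the call, as did total counts as the scale (-0.87, adjusted p = 0.0109 by edgeR). ENPP4 was at least 6.35-fold lower in KDAC8H143A, with no overlap, as in 58% of genes tested. Its fitted log2 fold change of -5.21 was called (adjusted p = 9.44e-05 by edgeR), though the gene passed the filter on low counts only through KDAC6H216A. EPB41L3 differed by 0.37 (SE 0.15) and did not pass (adjusted p = 0.0418 by edgeR), but passed with total counts as the scale (log2 fold change 0.61, adjusted p = 0.000845 by edgeR) and with all 6 groups in one fit (0.36, adjusted p = 0.0074 by edgeR). Of the 3 members tested 2 were called, ENPP4 with the limit above, and of all genes tested in this comparison, 53.2% were called.

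The inhibitors gave another order. EPB41L3 was at 190, 185 and 180 CPM with Tubastatin A, overlapping WT (log2 fold change -0.12, SE 0.046, adjusted p = 0.0254 by edgeR). With total counts as the scale, which moved the median of all genes to 0.35, it was called higher (0.23, adjusted p = 0.000621 by edgeR). With PCI-34051 it was at 144, 142 and 132 CPM, below every WT library, and fell by 0.52 on the log2 scale (SE 0.054, adjusted p = 2.58e-07 by edgeR). That call was lost when total counts alone set the scale (log2 fold change -0.13) and when all 6 groups shared a fit (-0.41). SERPINB5 was at 22.7, 24.5 and 22.8 CPM with Tubastatin A, above every WT library, and rose by 0.36 on the log2 scale (SE 0.076, adjusted p = 0.000384 by edgeR), a call lost with all 6 groups in one fit. With PCI-34051 it was at 16.9, 18.1 and 15.9 CPM, 1 library within the WT range, 1 above and 1 below it (log2 fold change -0.08, adjusted p = 0.419 by edgeR). With total counts as the scale the direction turned and the gene was called higher (0.30, adjusted p = 0.00632 by edgeR). ENPP4 was at 7.21, 7.86 and 7.58 CPM with Tubastatin A and at 6.77, 7.78 and 6.23 CPM with PCI-34051, above every WT library in both. It rose by 1.08 (SE 0.16, adjusted p = 6.26e-06 by edgeR) and 0.97 (SE 0.17, adjusted p = 0.000108 by edgeR) on the log2 scale. Of the 3 genes tested, 2 were called with each inhibitor, in comparisons that called 57.9% and 51.1% of all genes tested and separated the ranges of 63.9% and 59.1%.

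Between the inhibitors, at the one dose of each that was used, EPB41L3 was higher with Tubastatin A by 0.39 on the log2 scale (SE 0.047, adjusted p = 6.80e-05 by edgeR) and SERPINB5 by 0.44 (SE 0.072, adjusted p = 0.000861 by edgeR), without overlap for either gene, as in 31.6% of genes tested. Both calls were lost with all 6 groups in one fit, which called 7 genes in all. ENPP4 differed by 0.11, with a 95% interval (1.96 SE) of -0.12 to 0.34 (adjusted p = 0.604 by edgeR), and LINC00645 by 0.02, with an interval of -0.63 to 0.66 (adjusted p = 0.982 by edgeR). The doses differed (1 µM Tubastatin A and 5 µM PCI-34051, both for 48 h), so the values stand side by side. This comparison called 5.65% of 18409 genes and 2 of the 4 members tested.

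**Figure D3:**
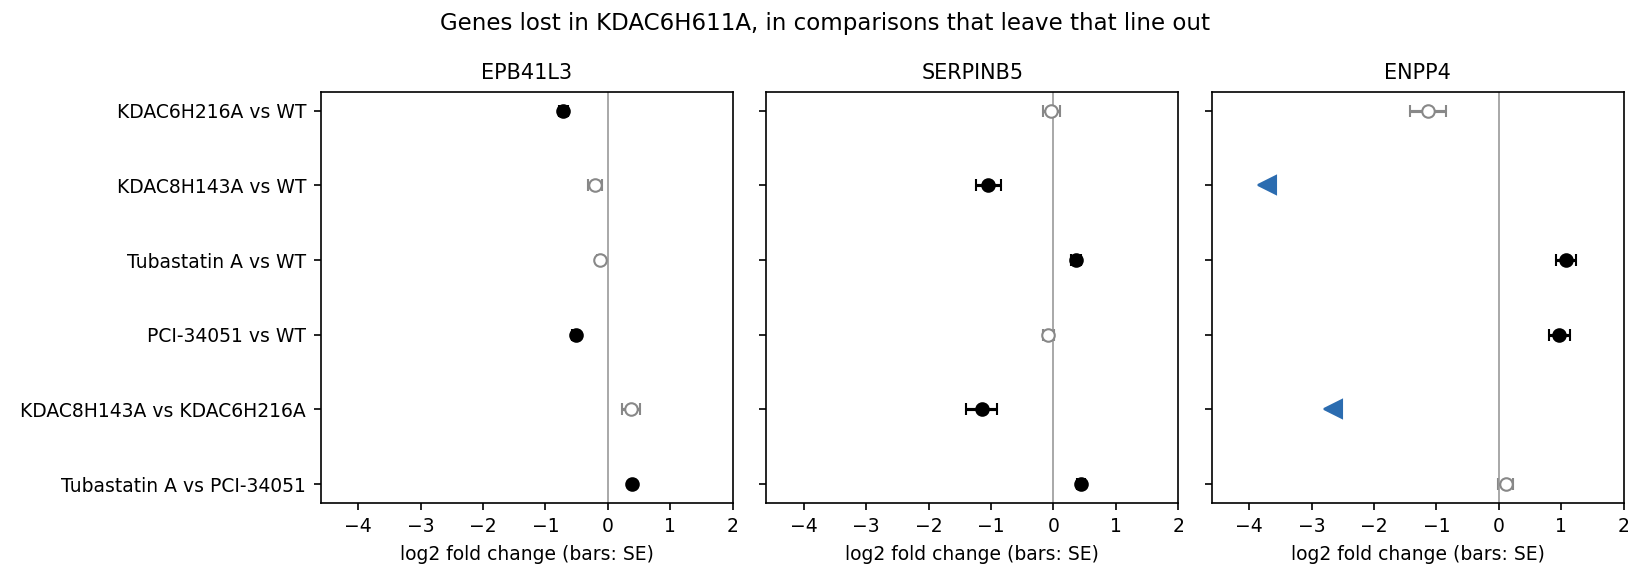
Log2 fold change (x axis) of the 3 lost genes in 6 comparisons without KDAC6H611A (y axis); circles are estimates with SE bars, filled where the adjusted p was below 0.01, and triangles are bounds against 3 counts. Against WT, EPB41L3 was called lower in KDAC6H216A and with PCI-34051, and SERPINB5 lower in KDAC8H143A and higher with Tubastatin A. ENPP4 was called higher with both inhibitors. It was also called lower in KDAC8H143A, where it passed the filter on low counts only through WT.

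Of the gained genes, LINC00645 was also found with both inhibitors. It was at 0.798, 0.822 and 0.787 CPM with Tubastatin A, from 24 to 25 counts, and at 0.711, 0.731 and 0.915 CPM with PCI-34051, from 19 to 26 counts, where WT had 0 counts in every library. The low totals of WT removed it from the main tests. Without the filter on low counts it was called higher with Tubastatin A (adjusted p = 3.72e-07 by edgeR, where 17.4% of genes were called higher). It was also called higher with PCI-34051 (adjusted p = 1.27e-06 by edgeR, where 15.7% were). The gene was chosen on its counts in these WT libraries, so both calls add no independent support. The bounds against 3 counts in the smallest WT library were at least 1.27-fold for either inhibitor, limited by the low totals of the WT libraries. LINC00645 in KDAC6H611A remained above all inhibitor libraries, at 4.49 ± 1.53 CPM (SD, n = 4) against 0.802 ± 0.0181 with Tubastatin A (SD, n = 3). SLITRK4 was at 0.128, 0.625 and 0.328 CPM with Tubastatin A, from 4 to 19 counts, and at 0.187, 0.191 and 0.106 CPM with PCI-34051, from 3 to 6 counts. Neither passed against WT without the filter (adjusted p = 0.0625 and 0.576 by edgeR). ADARB2 had 1, 0 and 5 counts with Tubastatin A and 1, 3 and 2 with PCI-34051, and did not pass either (adjusted p = 0.312 and 0.327 by edgeR).

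LINC00645 overlaps MIR3171HG on the opposite strand, and how strand entered the counting is not given in the sources used here. MIR3171HG had 0 counts in WT, 28 in all KDAC6H611A libraries together, 21 with Tubastatin A and 11 with PCI-34051, so the reads of the pair cannot be told apart. ADARB2 overlaps ADARB2-AS1, which had 7 counts in KDAC6H611A and 0 in every other group. It also overlaps the long non-coding RNA ENSG00000282390 on its own strand, with 12 counts in KDAC6H611A and 2 with Tubastatin A. The genes that overlap EPB41L3 and SERPINB5 never exceeded 3 counts in a library.

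By mean CPM, EPB41L3 ran in the order WT, Tubastatin A, KDAC8H143A, PCI-34051, KDAC6H216A and KDAC6H611A. Its neighbours in that order overlapped, except Tubastatin A with KDAC8H143A and KDAC6H216A with KDAC6H611A. SERPINB5 ran in the order Tubastatin A, KDAC6H216A, PCI-34051, WT, KDAC8H143A and KDAC6H611A, where KDAC6H216A, PCI-34051 and WT overlapped. ENPP4 ran from the overlapping inhibitor groups through WT and KDAC6H216A to KDAC6H611A and KDAC8H143A, which overlapped. LINC00645 ran from KDAC6H611A through both inhibitor groups to KDAC8H143A, KDAC6H216A and WT, and in SLITRK4 and ADARB2 all neighbours in the order below KDAC6H611A overlapped.

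The position of the genes was not used to choose them. Genes within 1 Mb of a member were therefore examined in KDAC6H611A against WT, where 12.3% of all genes were called, 6.08% higher and 6.24% lower. Of 24 such genes tested, 2 were called higher and 6 lower, and all 8 lay on chromosome 18. Around SERPINB5, 5 of 8 genes tested fell. BCL2, the inhibitor of apoptosis, was at 35.6 ± 0.713 CPM in WT (SD, n = 4) and 14.6 ± 2.45 in KDAC6H611A (SD, n = 4), and fell by 1.26 on the log2 scale (SE 0.13, adjusted p = 2.34e-05 by edgeR). PHLPP1, a phosphatase of AKT, fell by 1.07, the sphingolipid enzyme gene KDSR by 0.83, VPS4B of the ESCRT machinery by 0.94 and SERPINB8 by 1.24. SERPINB2, another serpin of the same cluster, rose by 1.59 (SE 0.36, adjusted p = 0.00682 by edgeR), while SERPINB7 and ZCCHC2 did not pass. Around EPB41L3, ZBTB14 fell by 0.90 (SE 0.15, adjusted p = 0.00101 by edgeR) and L3MBTL4 rose by 3.12 (SE 0.50, adjusted p = 0.000789 by edgeR), from 0.544 to 4.29 CPM, and LINC00667 did not pass. Around ENPP4 and ADARB2, 0 of 4 and 0 of 9 genes tested were called. No gene tested lay within 1 Mb of LINC00645 or SLITRK4. The 6 neighbours that fell were still at a mean of 6.04 to 45.1 CPM in KDAC6H611A, whereas EPB41L3 and SERPINB5 had no count left.

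**Figure D4:**
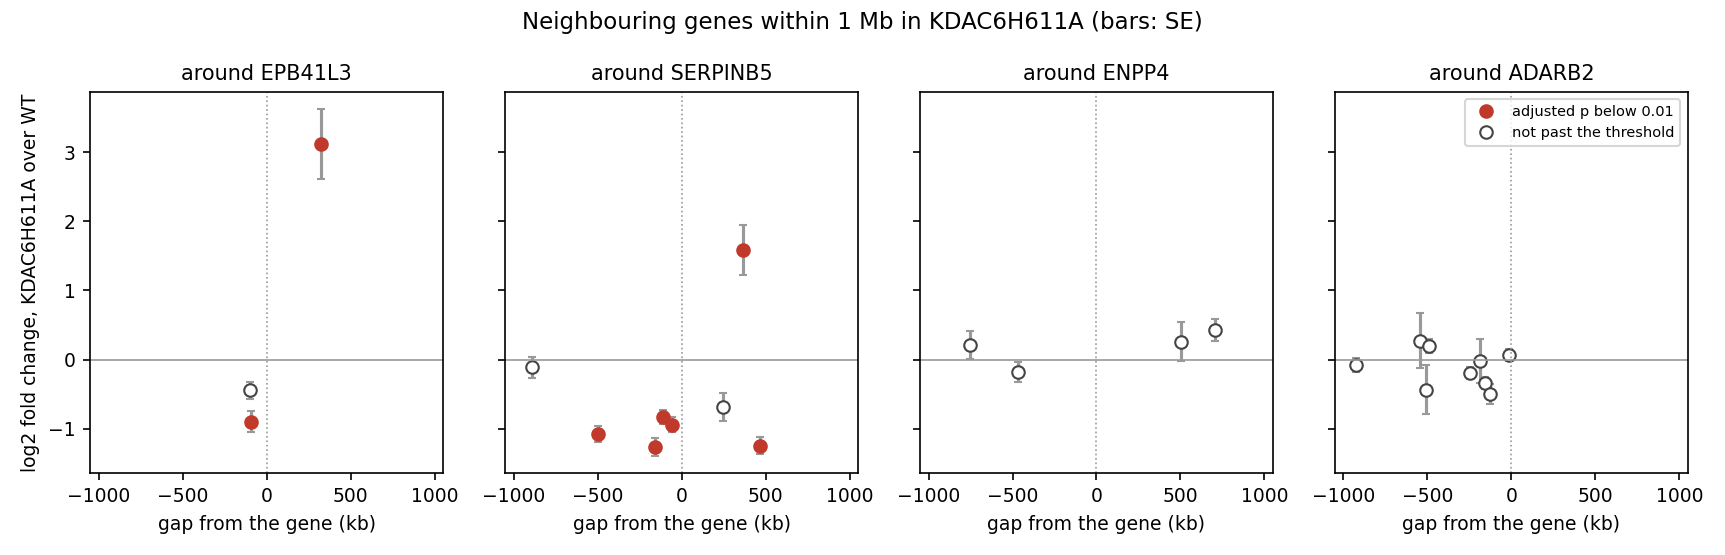
Log2 fold change of KDAC6H611A over WT (y axis, bars are SE) for tested genes by their gap from EPB41L3, SERPINB5, ENPP4 or ADARB2 (x axis, kb; negative values lie at lower coordinates); filled points passed an adjusted p of 0.01. The 8 filled points all lie around EPB41L3 and SERPINB5, and 6 of them are below 0.

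Since the falls did not stop at 1 Mb, all protein-coding genes were summarised by chromosome, a step chosen after the neighbours were seen. On chromosome 18, 110 of 181 genes tested (60.8%, members left out) were called lower and 4 higher, with a median log2 fold change of -0.83. Over all chromosomes 7.17% of protein-coding genes were called lower, with a median of 0.00. No other chromosome reached this share; chromosome 13 followed with 76 of 217 genes lower (35.0%, median -0.47) and chromosome 2 with 163 of 807 (20.2%, median -0.22). Chromosomes 6, 10, 14 and X, which carry the other members, had medians of -0.01, -0.01, 0.01 and 0.02. In single libraries, the median log2 ratio to the WT mean was taken over 139 chromosome 18 genes with a WT mean of at least 10 CPM. It ran from -1.05 to -0.78 in KDAC6H611A, from -0.05 to 0.06 in WT, from -0.09 to 0.29 in KDAC6H216A and from -0.58 to -0.32 in KDAC8H143A. It ran from 0.02 to 0.07 with Tubastatin A and from -0.10 to -0.01 with PCI-34051. KDAC6H611A and KDAC8H143A thus did not overlap WT or each other. This ratio is not given for other chromosomes. In KDAC8H143A against WT, 44.6% of 184 chromosome 18 genes were called lower (median -0.39). Over all chromosomes that line had 31.7% of protein-coding genes called lower (median -0.05). Leaving out each library in turn, the count of chromosome 18 genes called lower in KDAC6H611A was 95 to 124. With total counts as the scale it was 86 of 181 (47.5%), and with DESeq2 it was 116 of 225 (51.6%). The part of this chromosome-wide difference in the loss of EPB41L3 and SERPINB5 was not tested, and RNA counts do not show how many copies of the chromosome a line holds.

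**Figure D5:**
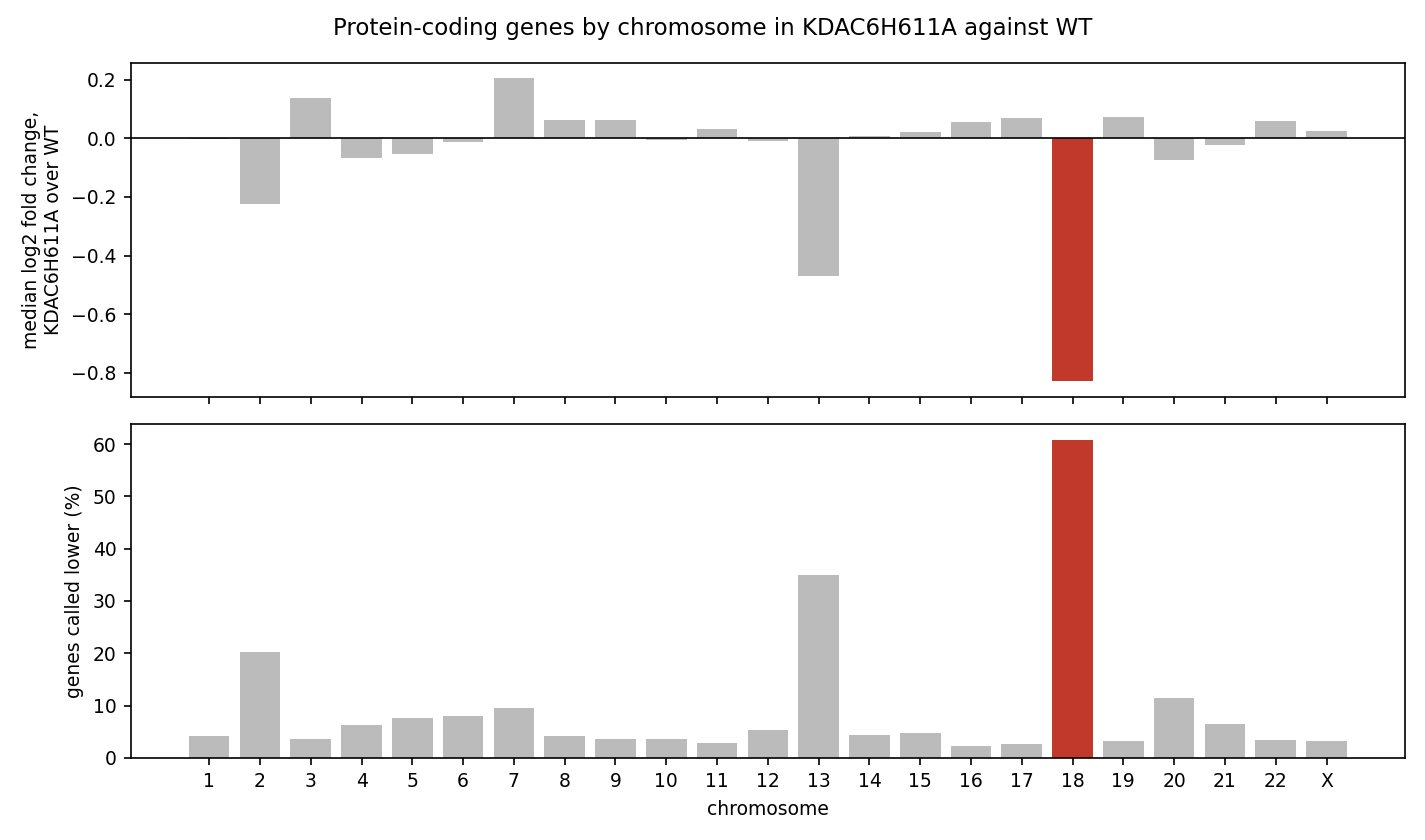
Median log2 fold change of KDAC6H611A over WT (upper panel) and percent of protein-coding genes called lower (lower panel) by chromosome (x axis), members left out. Chromosome 18 (red), which carries EPB41L3 and SERPINB5, is lowest with a median of -0.83 and 60.8% of genes called lower.

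The relatives and partners of the 6 genes were taken from 7 lists of 47 genes. In KDAC6H611A, 26 of them were tested, 4 rose and 2 fell, where 12.3% of all genes were called. In the protein 4.1 family, EPB41L1 rose by 0.71 on the log2 scale (SE 0.12, adjusted p = 0.00127 by edgeR), EPB41L2 fell by 0.63 (SE 0.094, adjusted p = 0.000455 by edgeR) and the other 4 did not pass. In the list of protein 4.1 partners, which holds the cell adhesion molecules CADM1 to CADM4, membrane palmitoylated proteins, spectrins and arginine methyltransferases, 0 of 7 tested passed. Among the clade B serpins, SERPINB1, an inhibitor of neutrophil proteases, rose from 4.45 ± 0.725 to 15.1 ± 3.57 CPM (SD, n = 4 each; log2 fold change 1.81, adjusted p = 5.43e-05 by edgeR). SERPINB2 rose and SERPINB8 fell, as above, and the other 3 tested did not pass. PTPRS, a receptor phosphatase of the type that binds SLITRK proteins, rose from 46.8 ± 7.90 to 122 ± 20.9 CPM (SD, n = 4 each; log2 fold change 1.41, adjusted p = 1.54e-05 by edgeR). The others of its list, PTPRF and PTPRD, did not pass (log2 fold change 0.20 and -0.49, adjusted p = 0.293 and 0.0102 by edgeR). ADAR and ADARB1, the enzymes that edit RNA, ENPP1 and SLITRK5 did not pass, and SLITRK2 was too low to be tested, at 0.139 ± 0.195 CPM in WT and 1.65 ± 0.377 in KDAC6H611A (SD, n = 4 each).

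In the other comparisons with WT, 0 of these relatives rose and 1 fell in KDAC6H216A, where 25 were tested and 0.834% of all genes were called. The one that fell was SERPINB1 (log2 fold change -1.88, SE 0.29, adjusted p = 0.00918 by edgeR), just under the threshold of 0.01. In KDAC8H143A 5 rose and 6 fell of 26 tested, where 58.5% of all genes were called. With Tubastatin A 15 rose and 5 fell of 27 tested (57.9% of all genes called), and with PCI-34051 13 rose and 6 fell of 27 (51.1%). PTPRS rose with Tubastatin A by 2.05 (SE 0.071, adjusted p = 1.17e-14 by edgeR) and with PCI-34051 by 2.11 (SE 0.078, adjusted p = 4.05e-13 by edgeR). ENPP1, which makes pyrophosphate outside the cell, was at 28.7 ± 2.21 CPM in WT (SD, n = 4) and 3.53 ± 1.32 in KDAC8H143A (SD, n = 4), and fell by 2.93 on the log2 scale (adjusted p = 8.62e-07 by edgeR). It was at 19.7 ± 5.66 CPM in KDAC6H611A (SD, n = 4), which did not pass (adjusted p = 0.0374 by edgeR).

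Genes with the most similar pattern were taken as the 3 with the highest Pearson correlation of log2 CPM (prior count 2) over all 22 libraries, among 18479 other genes. Libraries of a group share their line or treatment, so the points are not independent. They include the WT and KDAC6H611A libraries on which the members were selected. A high correlation between 2 lost or 2 gained members follows from that choice. For any other gene, a high correlation with a member can also rest on a difference between those 2 groups. Shared control was not tested. For EPB41L3 these were FLNC (r = 0.993), ULK2 (0.982) and SERPINB5 (0.979). FLNC, the gene of filamin C on chromosome 7, was at 152 CPM in WT, 82.0 in KDAC6H216A and 0.220 in KDAC6H611A. For SERPINB5 they were EPG5 (0.982), also on chromosome 18, EPB41L3 (0.979) and PAPL (0.979). For ENPP4 they were IGFBP3 (0.978), GJB2 (0.974) and RBMS1 (0.969), and IGFBP3 was at 1.52 CPM in WT, 4.01 with Tubastatin A, 4.62 with PCI-34051 and 0 in all libraries of KDAC6H611A and KDAC8H143A. For LINC00645 they were COL4A5 (0.966), RGL3 (0.964) and HEPH (0.949), of which COL4A5 and HEPH lie on the X chromosome. For ADARB2 they were LINC01267 (0.980), GRAMD1B (0.969) and TRIML2 (0.963). For SLITRK4 they were a signal recognition particle RNA named Metazoa_SRP (0.968), ARHGAP4 (0.955) and ADARB2 (0.955), and ARHGAP4, an X-linked gene like SLITRK4, was at 7.48 CPM in WT and 81.2 in KDAC6H611A.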

How the data were processed

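RNA from 22 cultures was depleted of rRNA and sequenced in pairs. The authors trimmed reads with Trimmomatic 0.39, and their processing notes name Bowtie2 2.4.5, RSEM 1.3.3 and DESeq2 1.38.2. The values are expected counts per gene as the authors deposited them, estimated by RSEM from the aligned reads and not normalized, for 60675 genes; the annotation release and the use of strand are not given in the sources used here. Here the expected counts were rounded to whole numbers. Pairs of groups were compared with edgeR 4.0.16 (R 4.3.3; TMM scaling, filterByExpr by group, quasi-likelihood test, Benjamini-Hochberg adjustment over all genes tested, threshold 0.01), and DESeq2 1.42.0 was an alternative. The code was tested on simulated data. SE is the size of the log2 fold change over the square root of F. A fold against a group at or near 0 was set against 3 counts per library, which covers counting error only. Gene positions came from GENCODE 44, which matched 56558 genes, and promoters from RefSeq.

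The members and lists were chosen with earlier results of these data known. The text names the members, their listed relatives, genes within 1 Mb, the 3 genes most like each member, and HDAC6. The chromosome summaries were chosen after values were seen. Totals of 5248953 to 29862665 counts per library set the precision.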

Additional observations from a re-analysis of the deposited data

Results flagged for a closer look

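SERPINB5 in KDAC8H143A replicate 2 was at 11.7 CPM, far from the other 3 libraries of that line (6.25 to 6.60 CPM). By the measure used, the gap to the nearest library over the range of the group, chance alone marks about 1 in 20 groups.

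The differences between lines and between inhibitors were tested directly. SERPINB5 differed between KDAC8H143A and KDAC6H216A by a log2 fold change of -1.15. ENPP4 was at least 6.35-fold lower in KDAC8H143A than in KDAC6H216A, and its fitted log2 fold change of -5.21 depends on the prior count. The gene passed the filter on low counts only through KDAC6H216A, so that call adds no independent support. Between Tubastatin A and PCI-34051, EPB41L3 differed by 0.39 and SERPINB5 by 0.44 on the log2 scale.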

How the results depend on the processing

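Total counts as the scale gave 912 genes called in KDAC6H611A and 440 in KDAC6H216A. They turned the log2 fold change of SERPINB5 to 0.12 (KDAC6H216A) and 0.30 (PCI-34051), EPB41L3 to 0.061 (KDAC8H143A) and 0.23 (Tubastatin A), and LINC00645 between the inhibitors to -0.019, of which SERPINB5 with PCI-34051 and EPB41L3 with Tubastatin A were called higher, and they moved the median of all genes to 0.17 (KDAC6H216A), 0.36 (KDAC8H143A), 0.35 (Tubastatin A), 0.38 (PCI-34051) and 0.25 (KDAC8H143A against KDAC6H216A). The share of calls that were higher went from 49.3% to 60.1% (KDAC6H611A), 25.6% to 81.1% (KDAC6H216A), 54.1% to 72.1% (KDAC8H143A), 50.6% to 81.1% (Tubastatin A), 49.9% to 84.2% (PCI-34051), 49.4% to 62.6% (KDAC8H143A against KDAC6H216A) and 61.1% to 41.8% (between the inhibitors). The least folds were then 409 for EPB41L3 and 36.9 for SERPINB5, and 352 for EPB41L3 with DESeq2 size factors. DESeq2 called 293 genes in KDAC6H216A and 10 relatives in KDAC6H611A. All 6 groups in one fit called 215 genes in KDAC6H216A, 4609 with Tubastatin A, 4337 with PCI-34051, 7 between the inhibitors with 0 members, and 11 relatives, and gave SERPINB5 0.066 (KDAC6H216A) and 0.016 (PCI-34051). No filter gave 12 relatives, 1884 genes between the inhibitors, and SERPINB5 at 0.0053 (KDAC6H216A) and 0.0022 (PCI-34051). A threshold of 0.05 gave 3384, 351 and 2463 genes in KDAC6H611A, KDAC6H216A and between the inhibitors, and 10 relatives. Within 2 Mb, 16 neighbours were called. At most 0 counts gave 7 lost and 3 gained genes.

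Leaving out each replicate gave 1122 to 2908 genes called in KDAC6H611A (2908 without its replicate 2, 1125 and 1122 without WT replicates 2 and 3), 28 to 3813 in KDAC6H216A (3813 without its replicate 1, the library with little mitochondrial rRNA, and at most 49 without any other library) and 407 to 1161 between the inhibitors, 5 to 10 relatives and 7 to 10 neighbours. Members called were 0 to 2 in KDAC6H216A (2 without its replicate 1, 0 without its replicate 2) and 1 to 2 between KDAC8H143A and KDAC6H216A. SERPINB5 in KDAC6H216A ran from -0.096 to 0.082 and LINC00645 between the inhibitors from -0.049 to 0.148. Least folds were 364 to 471 (EPB41L3), 32.6 to 42.4 (SERPINB5), 6.18 to 8.28 (ENPP4), 6.14 to 10.3 (LINC00645), 3.65 to 6.33 (ADARB2) and 13.4 to 21.9 (SLITRK4). The highest of these for each lost gene came without KDAC6H611A replicate 2, the library that sets their floor. Lost genes numbered 18 to 24 and gained genes 32 to 42. Leaving out a library can only keep or raise these counts, since fewer libraries must meet the rule. Same-numbered replicates shared only a number (correlations of -0.075 to 0.211), and a replicate block gave 66 genes called in KDAC6H216A and changed no call of a member. The cause of the other shifts was not tested.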
